A study of Mus musculus with 12 samples.

Results

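Egr1, Jun, Nr4a3, Klf6, Klf5 and Creb5 are 6 transcription factor genes measured by RNA sequencing in sorted motor neurons of mouse embryos, and they were chosen by name from the 205 different genes in the authors' 3 deposited tables. The thoracic mutant table lists all 6, the brachial mutant table lists Creb5 alone, and the table of control levels lists Klf5 alone. The 4 groups are thoracic mutant, brachial mutant, thoracic control and brachial control, with 3 libraries each, called A, B and C. Mutant embryos carried the genotype PbxMNdelta, in which Pbx genes are changed in motor neurons, and controls were their littermates. All were E12.5 embryos of a highly mixed C57BL/6 strain, and carried the Hb9::GFP reporter, by which the cells were sorted after papain dissociation of brachial or thoracic cord. The sources used here do not name the Pbx alleles or the driver of the mutation. The series design names 9 pooled controls and 9 pooled mutants and does not say how they were divided over libraries, so separate embryos per library cannot be assumed. All error values therefore cover the spread between libraries, which may be technical.

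Immediate-early genes are switched on within minutes of a stimulus by transcription factors that are already present in the cell, and in neurons calcium entry, growth factors and cell handling are all known triggers. Egr1 encodes a zinc finger factor, Jun a basic leucine zipper subunit of AP-1, Nr4a3 an orphan nuclear receptor and Klf6 a Krüppel-like zinc finger factor. Klf5 belongs to the same family as Klf6. Creb5 encodes a basic leucine zipper protein of the CREB and ATF family that can bind DNA as a dimer with Jun.

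The deposited values are normalized counts, with each library scaled by a single factor. The tables hold genes that the authors selected on an adjusted p under 0.05 in that same contrast, which 129 of the 130 thoracic and 61 of the 62 brachial ones met. The title of the table of control levels also names a fold limit of 1, taken here as log2. The group differences below are therefore a description, and where a gene is said to pass limma this counts genes of a selected table and is no independent test. If 1 step of the normalized values is 1 read, a library's reads in listed genes numbered 50690 to 81370 in the thoracic mutant table, 39381 to 52090 in the brachial one and 14181 to 17457 in the table of control levels. Of 8 motor neuron markers, Chat, Slc5a7 and Prph are listed in the brachial mutant table, which holds genes selected as changed. In brachial mutants they stood at 34.8%, 66.4% and 60.8% of their control means, with a sum of at least 623.3 normalized counts per library. None of the 8 was analysed in the thoracic libraries, so the labelled cell type was not checked there.

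On the authors' scaling all 6 genes were lower in thoracic mutants than in thoracic controls, by amounts that differed widely, although Egr1, Jun and Klf6 were not lower once libraries were centred on their median listed gene. Creb5 stood at 19.0% of its control mean, Klf5 at 39.3%, Nr4a3 at 56.0%, Egr1 at 65.3%, Jun at 72.5% and Klf6 at 76.5%. By limma with Benjamini-Hochberg adjustment over the 130 listed genes, 6 of 6 passed, as did 94.6% of the listed genes, and 6 of 6 passed as lower, as did 75.4%. The groups did not overlap for any of the 6 genes, nor for 97.7% of the listed ones. Since each library holds RNA of many cells, fewer cells of a type and less RNA per cell cannot be told apart.

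**Figure D1:**
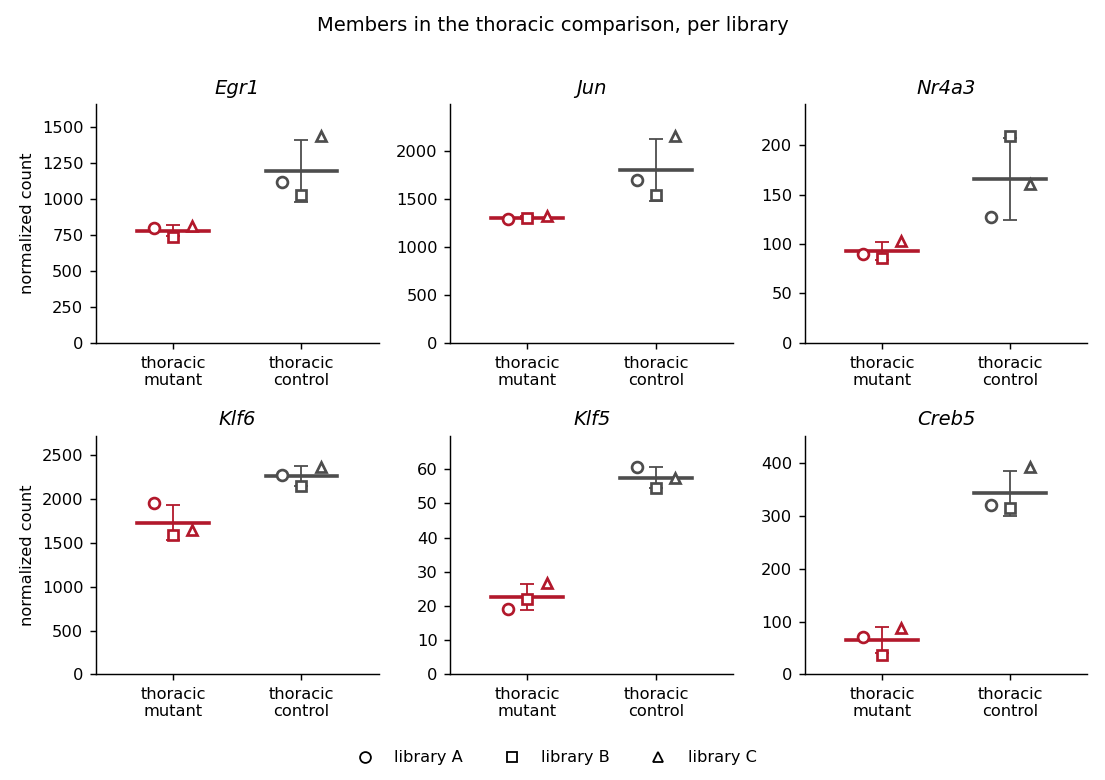
Normalized counts of the 6 genes (y axis, from 0, a scale of its own for each gene) in the thoracic mutant libraries and the thoracic control libraries (x axis). Points are libraries A, B and C, the thick line is the group mean and the bar is 1 SD (n = 3 each), and for each gene every mutant library lies below every control library on the authors' scaling, while Egr1, Jun and Klf6 turn slightly positive with libraries centred on the median listed gene.

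The scaling matters for the smaller of these differences. The median listed thoracic gene was 0.67 lower in mutants on the log2 scale, and 103 of the 130 listed genes were lower. With each library centred on its median listed gene, this median moved to 0.04, and 27 genes passed as higher and 25 as lower, against 25 and 98 on the authors' scaling. Relative to that shift, Creb5 (-1.75) and Klf5 (-0.63) were still lower, Nr4a3 stood at -0.09, and Egr1 (0.11), Jun (0.26) and Klf6 (0.32) turned to small positive values. Of the 6, Creb5 and Klf5 still passed limma there. The listed genes were selected for being changed, so their median is not a neutral scale, and which of the scalings is closer to the cells was not tested.

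**Figure D2:**
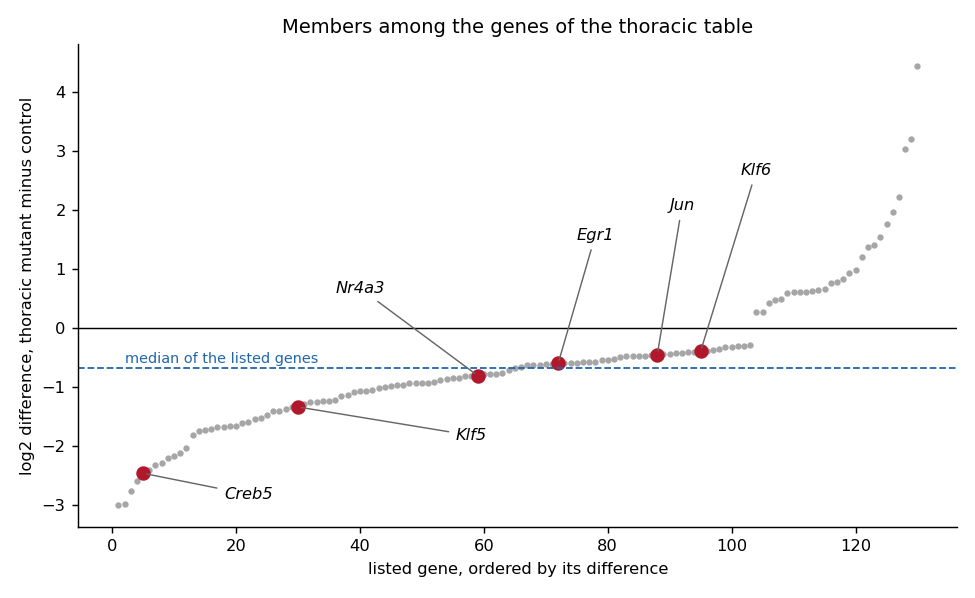
Log2 difference, thoracic mutant minus thoracic control (y axis), of the 130 listed genes ordered by that difference (x axis), with the 6 genes in red. Creb5 and Klf5 lie below the dashed median of -0.67, Nr4a3 lies close to it, and Egr1, Jun and Klf6 lie above it, so these last 3 turn positive when libraries are centred on that median.

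The promoters of Jun, Klf6 and Nr4a3 are shown because these genes were lower together in thoracic mutants on the authors' scaling (Jun and Klf6 turned positive and Nr4a3 lay near 0 under the centring), and immediate-early promoters are known for sites of the CREB, ATF and AP-1 families. Each window runs from 250 bases before to 50 bases after a start site in RefSeq on GRCm38.p6, which is not the build named in the submitters' processing notes. A window was found for 4 of the 6 genes but not for Egr1 or Klf5, whose promoters were therefore not searched. Capitals mark any of TGACGTCA (the cAMP response element), its variant TGACATCA, its core TGACG, or TGANTCA (an AP-1 site), on either strand. The Jun window is chr4:95052173-95052472 on the minus strand, that of Klf6 chr13:5861239-5861538 on the plus strand and that of Nr4a3 chr4:48045055-48045354 on the plus strand.
Jun: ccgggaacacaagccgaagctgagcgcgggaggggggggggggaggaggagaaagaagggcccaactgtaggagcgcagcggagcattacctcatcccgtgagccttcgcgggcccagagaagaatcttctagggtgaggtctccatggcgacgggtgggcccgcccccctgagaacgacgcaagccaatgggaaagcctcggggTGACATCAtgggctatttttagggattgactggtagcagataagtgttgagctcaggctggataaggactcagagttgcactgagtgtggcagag
Klf6: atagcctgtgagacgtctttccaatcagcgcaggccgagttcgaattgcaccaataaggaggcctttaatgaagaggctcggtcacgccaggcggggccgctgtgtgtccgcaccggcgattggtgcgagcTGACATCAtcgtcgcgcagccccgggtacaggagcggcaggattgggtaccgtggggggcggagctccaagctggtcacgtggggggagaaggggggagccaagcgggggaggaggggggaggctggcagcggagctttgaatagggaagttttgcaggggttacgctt
Nr4a3: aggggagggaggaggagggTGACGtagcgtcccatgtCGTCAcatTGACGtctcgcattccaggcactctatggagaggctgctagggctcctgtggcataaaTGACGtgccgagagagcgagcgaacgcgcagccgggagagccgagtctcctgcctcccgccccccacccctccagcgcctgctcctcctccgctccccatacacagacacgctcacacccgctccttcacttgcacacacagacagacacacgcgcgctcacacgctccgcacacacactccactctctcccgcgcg

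Both the Jun and the Klf6 window hold TGACATCA once, 45 and 119 bases before the start. Of all 32851 windows in the table, 3.62% hold this word on either strand. The Nr4a3 window holds TGACG at 4 places, 231, 213, 205 and 147 bases before the start, and 20.8% of all windows hold it at least once. TGACATCA and TGACG were added to the search after these windows had been seen. TGACG is part of TGACGTCA but not of TGACATCA. GGGCGG (a GC box) is in all 3 windows and in 35.7% of all windows. CCACCC is in the Jun and Nr4a3 windows and in 31.5% of all windows. None of these 3 windows, nor either Creb5 window, holds TGATNNAT (a Pbx and Hox word, 8.85% of all windows), TATAAA (13.6%) or the CArG box of serum response factor (1.63%).

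Egr1 is a standard reporter of recent stimulation in neurons. Egr1 (ENSMUSG00000038418) had 794.9, 734.9 and 807.3 normalized counts in thoracic mutant libraries A, B and C, against 1115, 1026 and 1438 in thoracic control libraries A, B and C. The mutant libraries lay close together, while control library C stood above the other two. The means were 779.0 ± 38.7 in mutants and 1193 ± 217 in controls (SD, n = 3 each), a log2 difference of -0.60 (SE 0.17). Without control library C it was -0.46.

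Jun encodes the c-Jun protein, which also takes part in the response of motor neurons to axon injury. Jun (ENSMUSG00000052684) had 1289, 1300 and 1320 normalized counts in mutant libraries A, B and C, against 1694, 1541 and 2159 in the control libraries. Again the mutant libraries were nearly alike and control library C was the highest. The means were 1303 ± 16.0 in mutants and 1798 ± 322 in controls (SD, n = 3 each), a log2 difference of -0.45 (SE 0.17). Jun no longer passed limma without mutant library A (-0.44), B (-0.45) or C (-0.46) or without control library A (-0.49) or C (-0.31). In the reference annotation Jun shares exon sequence with the antisense gene Junos, and the sources used here do not say whether counting used strand, so reads of the pair cannot be told apart.

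Klf6 was the most abundant of the 6 in normalized counts, which are not corrected for transcript length. Klf6 (ENSMUSG00000000078) had 1955, 1587 and 1646 normalized counts in mutant libraries A, B and C, against 2271, 2145 and 2364 in the control libraries. Mutant library A was the highest of its group, and the lowest control library was 1.10 times as high. The means were 1729 ± 197 in mutants and 2260 ± 110 in controls (SD, n = 3 each), a log2 difference of -0.39 (SE 0.15), which ranked 120th by size among the 130 listed genes. Klf6 no longer passed limma without mutant library B (-0.33) or C (-0.36) or without control library A (-0.39), B (-0.43) or C (-0.36).

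Nr4a3 responds to calcium and cAMP signals in neurons. Nr4a3 (ENSMUSG00000028341) had 89.9, 85.7 and 103.2 normalized counts in mutant libraries A, B and C, against 127.1, 209.8 and 160.6 in the control libraries. Here control library B was the highest, not C. The means were 92.9 ± 9.15 in mutants and 165.8 ± 41.6 in controls (SD, n = 3 each), a log2 difference of -0.81 (SE 0.21). The lowest control library was 1.23 times as high as the highest mutant library.

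The spread between control libraries was wider than read counting alone gives. If 1 step is 1 read, counting would give a coefficient of variation of 2.91% for Egr1 and 2.37% for Jun in controls, where 18.2% and 17.9% were seen. In mutants the observed values were 4.97% for Egr1 and 1.23% for Jun, beside 3.56% and 2.76% from counting. Nr4a3 varied by 9.85% in mutants, close to the 10.3% of counting, and by 25.1% in controls, against 7.72% of counting. Klf6 went the other way, with the wider spread in mutants. It varied by 11.4% in mutants, against 2.38% of counting, and by 4.86% in controls, against 2.10% of counting.

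Egr1 and Jun moved together over the thoracic control libraries. Klf6 had the same order of libraries with a narrower range, and Nr4a3 had another order. The ratio of Jun to Egr1 within a library does not depend on the scaling factor. It was 1.62, 1.77 and 1.64 in mutant libraries A, B and C, against 1.519, 1.502 and 1.502 in the control libraries. The means were 1.68 ± 0.08 in mutants and 1.51 ± 0.01 in controls (SD, n = 3 each). How many other pairs of listed genes have ratios that differ this way between the groups was not analysed, so nothing is read from it. Over the control libraries the SD of the log2 ratio of this pair was 0.0095, where the median over 8128 pairs of listed genes with a mean of at least 20 was 0.33, and 6 pairs had a smaller value. Over the mutant libraries it was 0.069, beside a median of 0.30, and 352 pairs were smaller. All pairs share the same few libraries, so these ranks only describe them. If 1 step is 1 read, counting alone gives a coefficient of variation of 2.91% for Egr1 and 2.37% for Jun in controls. The spread of their ratio in controls lay below what such counting error would give. Its small size, and its contrast with mutants, is therefore no measure of how closely the genes co-vary.

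**Figure D3:**
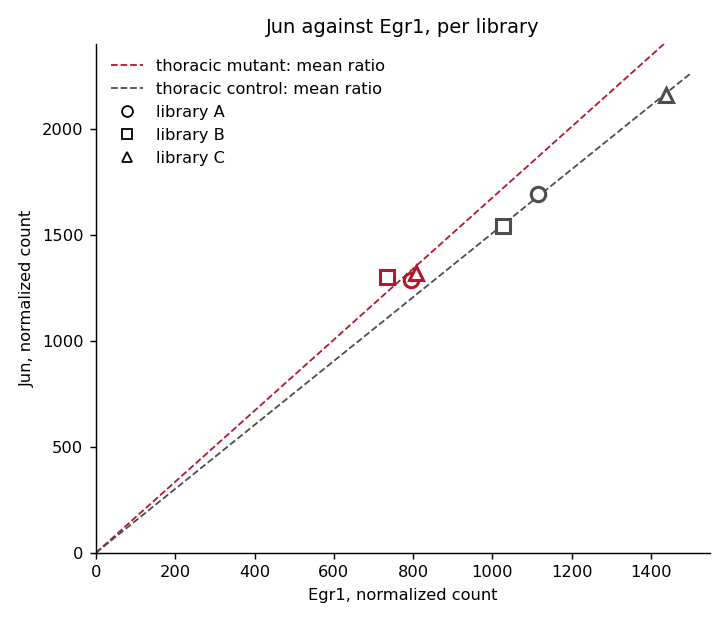
Normalized counts of Jun (y axis) against Egr1 (x axis) in the thoracic mutant libraries (red) and the thoracic control libraries (grey), both axes from 0, with the symbol giving the library letter. Dashed lines have the mean ratio of each group as their slope, 1.68 in mutants and 1.51 in controls, and the control libraries lie along theirs although their Egr1 runs from 1026 to 1438.

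The other pairs were less tight. Klf6 over Jun was 1.52, 1.22 and 1.25 in mutant libraries A, B and C, against 1.34, 1.39 and 1.09 in control libraries A to C, and the groups overlap. Nr4a3 over Egr1 was 0.113, 0.117 and 0.128 in mutant libraries A, B and C, against 0.114, 0.204 and 0.112 in the control libraries. Outside control library B, this ratio thus lay between 0.112 and 0.128 in both genotypes. Set against its group mean on the log2 scale, control library B was 0.37 higher in Nr4a3 and stood at -0.20 in Egr1 and -0.21 in Jun. Control library C was 0.28 higher in both Egr1 and Jun and 0.07 higher in Klf6, where the median listed gene was 0.06 higher.

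**Figure D4:**
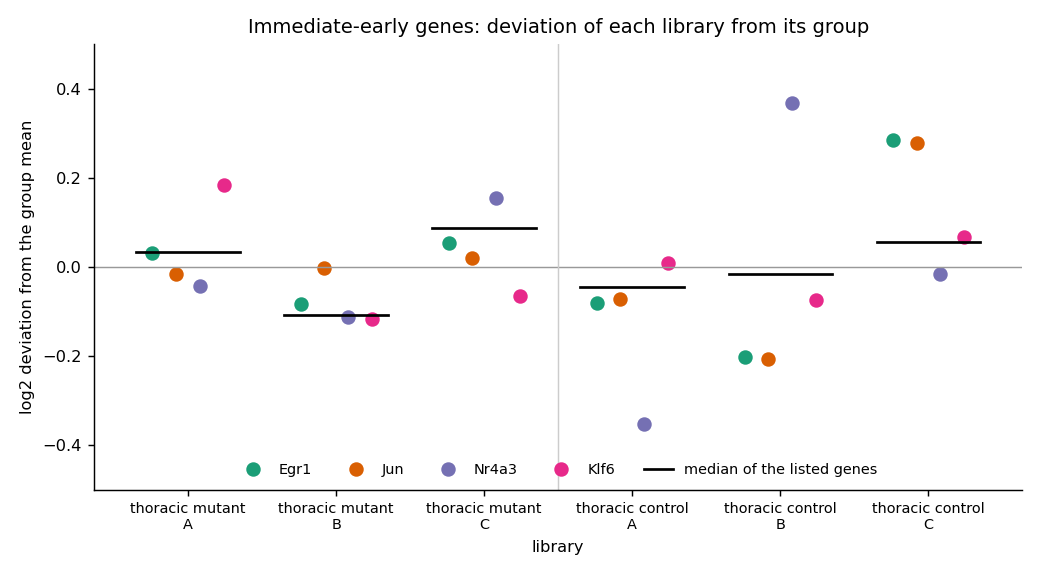
Deviation of each library from its group mean on the log2 scale (y axis) for Egr1, Jun, Nr4a3 and Klf6 in the thoracic mutant libraries and the thoracic control libraries (x axis), with the median of the 130 listed genes as a black line. Egr1 and Jun lie beside each other in each control library, while Nr4a3 is far above them in control library B and below them in A and C.

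The listed genes whose library pattern was most like the mean of these 4 genes were Arhgap5, Msantd4 and Edem1, the last of which acts in degradation at the endoplasmic reticulum. Likeness was the root mean square difference of the deviations over the 6 libraries, which was 0.039, 0.042 and 0.045 on the log2 scale, beside a median of 0.19 over 124 genes. Klf11 came next at 0.049. Genes with a mean under 20 were left out of this ranking. The mean deviation of the 4 genes had the same sign as that of the median listed gene in every library. From A to C it was 0.04, -0.08 and 0.04 in thoracic mutants, beside 0.03, -0.11 and 0.09 for the median. Thoracic controls had -0.12, -0.03 and 0.15, beside -0.05, -0.02 and 0.06. For thoracic control library B the mean joins Nr4a3 at 0.37 with Egr1 at -0.20 and Jun at -0.21. The part of library-wide shifts in this ranking was not tested.

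Few other genes of activity and stress programmes are listed. Of 58 names in a fixed list of immediate-early and activity genes, the thoracic mutant table lists 5, all lower on the authors' scaling, with a median log2 difference of -0.58 beside -0.67 over all listed genes. In that comparison 0.795% of the genes the authors tested were under their adjusted p of 0.05 and are listed. The list was drawn up with these members known, so nothing is read from that count. The other listed one is Scg2, a granin of dense core vesicles, with 417.5 ± 95.4 normalized counts in mutants and 619.0 ± 114 in controls (SD, n = 3 each), a log2 difference of -0.58 (SE 0.23) that became 0.13 under the centring. Values of other widely used ones, such as Fos, Fosb, Junb, Nr4a1, Arc, Npas4 and Atf3, were not analysed here. The brachial mutant table lists 0 of the 58 names. Between control levels it is Inhba alone, an activin subunit gene, with 60.7, 102.3 and 101.5 normalized counts in brachial control libraries A, B and C, against 22.9, 22.8 and 12.7 in thoracic control libraries A, B and C. Its log2 difference was 2.16 (SE 0.33).

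Of 24 stress and dissociation names, 2 are listed for thoracic mutants and 1 for brachial mutants, and heat shock genes were not analysed here. Slc7a11, a cystine transporter gene, averaged 44.0 ± 14.4 normalized counts in thoracic mutants and 12.1 ± 6.97 in thoracic controls (SD, n = 3 each). Cdkn1a, a brake on the cell cycle, averaged 266.3 ± 75.2 in thoracic mutants and 116.4 ± 36.8 in thoracic controls (SD, n = 3 each). Both passed limma as higher in thoracic mutants, as did 25 of the 130 listed genes, and Cdkn1a was 1.04 higher on the log2 scale (SE 0.16) in brachial mutants as well. The part of cell stress in the lower Egr1, Jun, Nr4a3 and Klf6 values was not tested.

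A list of 14 names of ERK pathway target and feedback genes includes Egr1 itself. Of these names 5 are listed in the thoracic mutant table, with 2 passing limma as higher and 3 as lower. Of all 130 listed genes, 25 passed as higher and 98 as lower. Etv4 (3.20, SE 0.49) and Spry4 (1.54, SE 0.22) were higher in thoracic mutants, and Etv1 (-1.47, SE 0.21) and Egr1 were lower. Spry2 (-0.59, SE 0.13) was also lower, and at 0.13 it was no longer so under the centring. With nearly all listed genes passing, nothing is read from these counts.

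A few markers of other cell types are among the genes selected as changed in the thoracic mutant table, and these were lower in mutants on the authors' scaling. Of 7 progenitor and glial markers Nes alone is listed, at 409.2 to 438.4 normalized counts in thoracic mutants and 529.7 to 712.0 in thoracic controls. Of 7 meningeal and mesenchymal markers, Col2a1 and Postn are listed, with a sum of 38.8 to 47.1 in thoracic mutants and 87.6 to 136.2 in thoracic controls. Under the centring the log2 difference was 0.25 for Nes, -0.37 for Col2a1 and -1.40 for Postn, and of these Postn alone still passed limma. Markers of interneurons, dorsal root ganglion and blood were not analysed there. The part of such cells in the differences of Egr1, Jun, Klf6 and Nr4a3 was not tested.

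Klf5 was lower in thoracic mutants than in thoracic controls, and also lower in brachial than in thoracic controls. Klf5 (ENSMUSG00000005148) had 19.2, 21.97 and 26.6 normalized counts in thoracic mutant libraries A, B and C, against 60.6, 54.5 and 57.3 in thoracic control libraries A, B and C. The means were 22.6 ± 3.72 in mutants and 57.5 ± 3.06 in controls (SD, n = 3 each), 2.54-fold lower, with a log2 difference of -1.34 (SE 0.16). The authors' model gave an error of 0.34 for this Klf5 difference, and limma with an intensity trend 0.36, so the SE of 0.16 may be too small. If 1 step is 1 read, the Klf5 means rest on 20 to 26 reads per mutant library and 51 to 62 per control library. The spread between libraries was no wider than counting gives, at 16.5% beside 21.0% in mutants and 5.32% beside 13.2% in controls.

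In the table of control levels, Klf5 had 17.98, 19.8 and 17.1 normalized counts in brachial control libraries A, B and C, against 52.6, 47.2 and 49.8 in thoracic control libraries A, B and C. The groups lie far apart, with means of 18.3 ± 1.35 in brachial and 49.9 ± 2.71 in thoracic controls (SD, n = 3 each), 2.73-fold lower at the brachial level. With the fold limit of that table, wide differences were selected for there. The log2 difference was -1.42 (SE 0.15), and -0.69 with the centring. The authors' model gave a larger error for it, 0.37, so the SE of 0.15 may be too small. Klf5 passed limma, as did 98.4% of the 64 genes listed for this contrast, and as lower, as did 62.5%. Its groups did not overlap, nor did those of 98.4%. Evx2, the only marker of another cell type listed there, an interneuron gene, ran from 185.9 to 325.4 normalized counts in brachial and from 381.5 to 686.5 in thoracic controls, and its part in the Klf5 difference was not tested. Both comparisons use the same thoracic control libraries, so their shared direction is not an independent result.

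The tables are scaled separately, but each control library differs between its tables by 1 constant factor. Over the thoracic controls this factor was 0.868, with a range of 0.228% between libraries, and over the brachial controls 1.11, with a range of 0.462%. Multiplying each mutant table by its mean factor puts the libraries on the scale of the control table. On that scale Klf5 was at 19.6 ± 3.23 in thoracic mutants, 18.3 ± 1.35 in brachial controls and 49.9 ± 2.66 in thoracic controls (SD, n = 3 each). Thoracic mutant libraries ran from 16.7 to 23.1 and brachial control libraries from 17.1 to 19.8, so these neighbours overlap. This level set across tables rests on the shared thoracic libraries and was not tested.

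**Figure D5:**
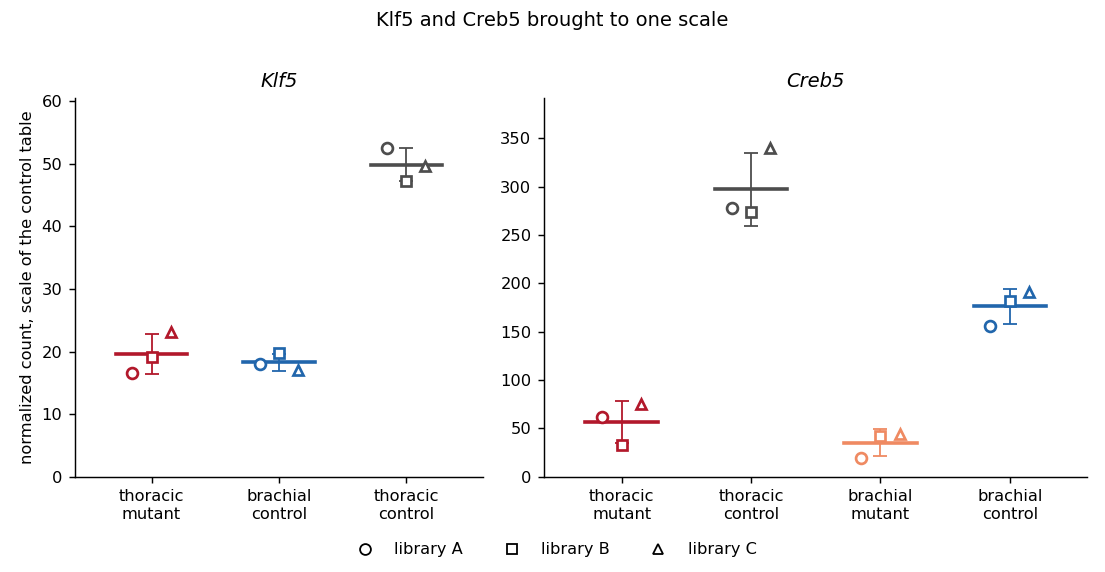
Klf5 (left) and Creb5 (right) in normalized counts on the scale of the control table (y axes, from 0), by group (x axis), with libraries A, B and C as points, the mean as a thick line and 1 SD as a bar (n = 3 each). Klf5 in thoracic mutants overlaps brachial controls, and Creb5 is low in mutants of both levels and lower in brachial than in thoracic controls.

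The Klf5 library pattern in the thoracic mutant table was most like that of Mecom, a zinc finger factor, Tmc7, a transmembrane channel-like gene, and Rapgef6, an exchange factor for Rap. Their root mean square differences over 6 libraries were 0.082, 0.082 and 0.090 on the log2 scale, beside a median of 0.23 over 127 genes. Between control levels Skap2, an adaptor gene (0.068), Hoxc4 (0.087) and Hoxc6 (0.107) had the smallest values, beside a median of 0.30 over 60 genes. Such values can be small for genes that hardly vary, as with Skap2 (coefficients of variation 1.41% in brachial and 0.41% in thoracic controls). In brachial control libraries A to C, Hoxc6 deviated by 0.02, -0.08 and 0.06, against -0.02, 0.11 and -0.09 for Klf5. These genes are therefore not read as moving with Klf5. With so few Klf5 reads, the part of counting noise in this order was not tested.

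Of 26 Klf and Sp names, Klf5, Klf6 and Klf11 are listed in the thoracic mutant table, none in the brachial one and Klf5 between control levels. Klf11, a repressor induced by TGF-beta, had 472.9, 409.8 and 452.7 normalized counts in thoracic mutant libraries A, B and C, against 582.5, 570.3 and 703.2 in thoracic control libraries A, B and C. Its log2 difference was -0.47 (SE 0.15), close to those of Klf6 and Jun, and like theirs it turned positive under the centring, at 0.24. On the authors' scaling the difference of Klf5 was more than double that of either relative.

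Creb5 showed the largest difference of the 6 in thoracic mutants, and it was also lower in brachial mutants, where it is the only one of the 6 listed. Creb5 (ENSMUSG00000053007) had 70.7, 37.4 and 86.9 normalized counts in thoracic mutant libraries A, B and C, against 319.6, 315.1 and 392.1 in thoracic control libraries A, B and C. The means were 65.0 ± 25.2 in mutants and 342.3 ± 43.2 in controls (SD, n = 3 each), 5.27-fold lower, and the lowest control library held 3.63 times the highest mutant one. Mutant library B held less than the other two, and without it the log2 difference was -2.11 instead of -2.47 (SE 0.31).

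At the brachial level Creb5 had 17.2, 38.2 and 40.1 normalized counts in mutant libraries A, B and C, against 140.8, 163.9 and 171.9 in the control libraries. The means were 31.8 ± 12.7 in mutants and 158.9 ± 16.2 in controls (SD, n = 3 each), 4.99-fold lower. The log2 difference was -2.39 (SE 0.30), and without mutant library A, the lowest, it was -2.00. By limma, Creb5 passed, as did 98.4% of the 62 genes listed at this level, and as lower, as did 82.3%. Its groups did not overlap, nor did those of 96.8% of the listed genes, and 0.515% of the genes the authors tested are listed under their adjusted p of 0.05. The listed motor neuron markers Chat, Slc5a7 and Prph had a sum of 623.3 to 775.5 normalized counts in brachial mutants and 864.0 to 1294 in brachial controls. Chat alone averaged 58.2 ± 17.3 in brachial mutants and 167.5 ± 34.6 in brachial controls (SD, n = 3 each). The part of these markers' change in the Creb5 difference was not tested. With the centring the difference was -1.71 in the brachial and -1.75 in the thoracic comparison.

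Creb5 thus stood at 19.0% of the control mean at the thoracic level and at 20.03% at the brachial level. The difference between the levels was tested by a limma interaction over the 12 libraries and the 30 genes that both mutant tables list. It was -0.08 (SE 0.48, thoracic minus brachial effect, adjusted p = 0.986), with a 95% interval from -1.13 to 0.98 on the log2 scale, so effects that differ by up to about that much are within the error. Limma called 0 of the 30 genes, and 0 had an unadjusted p under 0.05. These 30 genes, Creb5 included, were selected as changed at both levels on these same libraries. Genes changed at a single level were thus left out beforehand, and nothing is read from the counts of 0.

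On the scale of the control table, Creb5 averaged 56.4 ± 21.9 in thoracic mutants, 35.3 ± 14.1 in brachial mutants, 297.1 ± 37.5 in thoracic controls and 176.4 ± 17.9 in brachial controls (SD, n = 3 each). Control libraries did not overlap between the levels, at 156.3 to 190.9 in brachial and 273.5 to 340.3 in thoracic controls. The brachial control mean was 0.75 lower on the log2 scale, which is inside the fold limit of 1 in the title of the authors' table of control levels (Creb5 was not analysed in that table). Mutant libraries of the levels overlapped, at 32.4 to 75.4 in thoracic and 19.1 to 44.5 in brachial mutants. These levels set across tables were not tested.

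The authors' deposited table gives Creb5 log2 fold changes of -2.39 for the thoracic and -0.88 for the brachial mutant. The log2 ratios of group means, mutant over control, were -2.40 and -2.32. In the brachial mutant table the authors' value was 0.378 times this ratio for Creb5 and 0.679 times for the median listed gene, and in the thoracic one 0.998 times for the median gene. The authors' Creb5 values thus differ between the levels by more than the ratios of means do. Over all listed genes the authors' values were 0.096 to 0.928 times the ratio in the brachial mutant table and 0.985 to 1.02 times in the thoracic one. Smaller authors' values are therefore a trait of the whole brachial table and not of Creb5 alone.

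Creb5 is the only one of 24 CREB and ATF names listed in either mutant table, and no name of that list is in the table of control levels. Its relatives, among them Creb1, Crem, Atf2 and Atf7, were not analysed here. Of 18 AP-1 and Maf names, whose products include dimer partners of Creb5, Jun alone is listed, in the thoracic mutant table. In the reference annotation a Creb5 exon also overlaps Gm25818, a small nuclear RNA gene on the same strand.

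The pattern of Creb5 over libraries was most like that of 2900026A02Rik, Hrk, a cell death gene, and Cacna1e, a calcium channel subunit, in the thoracic mutant table. Their root mean square differences were 0.135, 0.135 and 0.136 over 6 libraries, beside a median of 0.36 over 127 genes. In the brachial mutant table Chat, which makes acetylcholine (0.164), Hlf, a leucine zipper factor (0.200), and Cpne5, a calcium-dependent membrane-binding protein gene (0.205), came closest, beside a median of 0.39 over 61 genes.

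The Creb5 windows are shown because the gene has a pair of start sites in RefSeq whose sites differ, with capitals as above. The upstream window is chr6:53287053-53287352 and the downstream one chr6:53573124-53573423, both on the plus strand of GRCm38.p6.
Creb5 upstream: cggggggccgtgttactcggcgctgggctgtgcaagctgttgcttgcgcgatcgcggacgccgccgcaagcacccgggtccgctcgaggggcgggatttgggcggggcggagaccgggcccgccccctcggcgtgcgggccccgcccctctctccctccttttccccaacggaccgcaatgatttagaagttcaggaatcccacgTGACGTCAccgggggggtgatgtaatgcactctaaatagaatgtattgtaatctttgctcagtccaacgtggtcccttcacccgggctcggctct
Creb5 downstream: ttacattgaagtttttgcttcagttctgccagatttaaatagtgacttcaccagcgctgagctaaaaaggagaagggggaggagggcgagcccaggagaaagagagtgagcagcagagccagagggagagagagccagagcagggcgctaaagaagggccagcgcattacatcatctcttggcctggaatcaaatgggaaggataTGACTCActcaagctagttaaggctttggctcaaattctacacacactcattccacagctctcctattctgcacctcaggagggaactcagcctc

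The upstream window holds the full cAMP response element TGACGTCA 45 bases before the start, which 1.79% of all windows hold, and GGGCGG at 5 places. The downstream window holds TGANTCA, the AP-1 word, 45 bases before its start, as do 7.81% of all windows, and no GGGCGG. The G and C content was 64.7% in the upstream window, beside a median of 52.7% over all windows, and lower in the downstream one, at 50%. The deposited counts are per gene, so which start was used in any group was not analysed here.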

How the data were processed

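RNA of sorted motor neurons was sequenced in 12 libraries, 3 per group. Amplified cDNA went into library construction, per the labels' protocols. The submitters' processing notes name Picard 1.88, Bowtie 1.0.0, DESeq2 1.12.3 and HTSeq 0.6.1p1, with the builds mm9 and NCBIM37. The sources used here do not give their settings. The authors deposited 3 tables of selected genes, with normalized counts per library (a normalized signal, called CPM in the sheet titles) and their row mean. The log2 fold changes with their errors, the test score and the p-values come from the authors' own model and were deposited beside them.

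Differences were taken within a table on log2(normalized count + 0.5) with limma 3.58.1 in R 4.3.3, fitted to all listed genes with 2 groups per table and a threshold of 0.05. The 2 mutant tables were joined for the interaction over their 30 shared genes. The fits were tested on simulated data. The reads behind a value are the value divided by the largest step of which all values of that library are whole multiples, within a tolerance of 1e-06. This is an inference, and total library depth was not analysed here. Precision statements from it cover counting error only.

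The members and gene lists were chosen with earlier results of these data known. Named genes are the 6 members, listed genes of the fixed lists and, per table, the 3 genes with a mean of at least 20 and the nearest library pattern. Klf11 and Spry2 are named through their lists. All 6 member identifiers matched the reference names. Summaries and plots were made in Python 3.11.15 (numpy 2.4.6, pandas 2.3.3, matplotlib 3.10.9). The alternatives left out each library in turn, centred libraries on the median of the listed genes, blocked on the replicate letter, set the pseudocount to 0.1 or 2, required a mean of at least 1 or fitted an intensity trend.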

Additional observations from a re-analysis of the deposited data

How the results depend on the processing

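Centring on the median listed gene was the alternative that moved the values. Under it 52, 20 and 40 genes passed in the thoracic mutant, brachial mutant and control level tables, against 123, 61 and 63. The differences were then -1.75 (thoracic) and -1.71 (brachial) for Creb5, -0.63 (thoracic mutant) and -0.69 (control levels) for Klf5 and -0.093 for Nr4a3. Those of Egr1 (0.11), Jun (0.26), Klf6 (0.32), Klf11 (0.24), Scg2 (0.13), Spry2 (0.13), Nes (0.25), Arhgap5 (0.42), Edem1 (0.25), Msantd4 (0.28), Mecom (0.13), Tmc7 (0.099) and Rapgef6 (0.39) turned positive in the thoracic table, and that of Slc5a7 (0.096) in the brachial one. This follows from the construction, since the median listed gene was itself lower. Under the remaining alternatives, left-out libraries included, 88 of 88 recomputed member differences kept their direction and moved by less than 1 SD between replicates. Leaving out each library gave 100 to 114 passing genes in the thoracic, 40 to 58 in the brachial (40 without brachial control B) and 61 to 64 in the control-level comparison, and a difference of the Creb5 effect between levels from -0.46 to 0.28. No p of that difference passed. A replicate block by letter gave 118, 60 and 64 passing genes. The correlations of same-letter deviations (A, B, C) were -0.03, 0.31 and -0.13 in the thoracic mutant, 0.10, -0.49 and -0.24 in the brachial mutant and 0.29, -0.03 and 0.16 in the control-level table, so in none were all over 0.1, and the letters were not taken as pairs. The libraries that correlated best with their own letter numbered 2, 2 and 4 of 6, in the same order. A count test on reads was not run, since the unit check did not accept whole reads from these values. Few reads limit Klf5 and, in brachial mutants, Creb5, which rested on 18 to 41 reads per library if 1 step is 1 read. Some other named genes had fewer on the same reading. Etv4 had 2 to 10 and Slc7a11 4 to 20 reads per thoracic control library, and Postn 5 to 10 per thoracic mutant library.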
